A study of Homo sapiens with 8 samples.

Results

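The 8 genes FTH1, FTL, TFRC, IREB2, ACO1, NCOA4, SLC11A2 and FBXL5 store iron in ferritin, take it up, or set how much of either the cell does. They were taken by symbol out of 58735 genes in the transcript tables. The rule uses no measured value, but earlier results of these data were known when the genes were chosen. All 8 were among the 18242 genes with enough reads to be tested. Ferritin is a shell of heavy (FTH1) and light (FTL) subunits that keeps iron as a mineral core, and the transferrin receptor (TFRC) brings transferrin-bound iron into the cell. Iron regulatory proteins bind a hairpin called the iron-responsive element. In iron-poor cells they block translation of ferritin mRNAs, which carry the hairpin in the 5′ UTR, and protect the TFRC mRNA, which carries several in the 3′ UTR. Ferritin is also known as a safeguard against free iron, which promotes the oxidation of cell components.

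BEAS-2B, an established human bronchial epithelial cell line, was grown at an air–liquid interface and exposed during 2 h to clean air (CA) or 1 ppm formaldehyde (FA), then left to recover over 6 h. DNase-treated, rRNA-depleted RNA was sequenced directly (input, IN) or after immunoprecipitation (IP) with an antibody against 8-oxoG, an oxidized form of guanosine. The 4 groups CA_IN, FA_IN, CA_IP and FA_IP held 2 replicates each, numbered 1 and 3, and each input shared its RNA pool with the immunoprecipitated library of the same treatment and number. The sources name 2 antibody clones, 15A3 and 2E2, so the clone is uncertain. Expected counts, which are reads divided among isoforms by estimation, came to 26152651 to 45144392 per input library and 16883500 to 23658012 per immunoprecipitated library. All 7 epithelial markers were present, from 8.82 TPM (transcripts as a share of the library, corrected for length) for CDH1 to 497.2 for KRT7 in the input. Of the leukocyte, endothelial, fibroblast and erythroid markers, PTPRC, VWF and HBB stood at no more than 0.02 TPM in any library. The leukocyte markers CD68 and CD14 reached 3.84 and 3.15 TPM, and the fibroblast marker COL1A1 reached 2.34 TPM. The largest of the remaining non-epithelial markers was PECAM1, at up to 0.3 TPM.

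The hairpins were read from the GRCh38 genome sequence to show where the members carry the regulatory element by which iron is sensed. A match had a bulged C, an upper stem of 5 bases on each side with at least 4 pairs, and a loop spelled CAGTGN, searched on the transcript strand only. Elements with another loop were not searched for, so a transcript can carry more elements than it has matches. In the sequences below the 6 loop bases are in capitals, and each is written 5′ to 3′ on the transcript strand. The FTH1 hairpin lies at chr11:61967575-61967601 (minus strand) and that of FTL at chr19:48965336-48965362 (plus strand), both in the 5′ UTR.
FTH1 5′ UTR: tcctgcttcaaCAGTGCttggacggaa
FTL 5′ UTR: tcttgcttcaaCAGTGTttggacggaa
Counting from 1 at the 5′ end, the FTH1 and FTL hairpins shared 25 of 27 bases and differed by C3T and C17T. Of 19701 canonical protein-coding transcripts, 101 (0.513%) had such a match in the 5′ UTR.

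TFRC had 4 matches in its 3′ UTR on the minus strand of chromosome 3, at chr3:196050980-196051006, chr3:196050576-196050602, chr3:196050511-196050537 and chr3:196050464-196050490, listed here in the order in which the mRNA carries them.
TFRC first: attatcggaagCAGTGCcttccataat
TFRC second: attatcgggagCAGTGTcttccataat
TFRC next: tgtatcggagaCAGTGAtctccatatg
TFRC last: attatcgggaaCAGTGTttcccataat
A 3′ UTR match was present in 829 canonical transcripts (4.21%), but 3 or more were present in 5 of them (0.0254%). SLC11A2, the divalent metal transporter that moves iron out of endosomes, had a match with 4 of 5 stem pairs at chr12:50988270-50988296 (minus strand).
SLC11A2 3′ UTR: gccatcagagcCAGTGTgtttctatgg
This hairpin belongs to only some isoforms of SLC11A2, since others end in a different 3′ exon. Matches with 4 of 5 pairs also stood in the 3′ UTR of IREB2-201 and ACO1-201, and none was found in NCOA4 or FBXL5. A match describes the letters and does not show binding.

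In clean-air input, FTL mRNA was the most abundant of the 8 at 899 ± 137 TPM (SD, n = 2), followed by FTH1 at 344 ± 49.3 TPM. The other 6 lay at least 9-fold below FTH1 on this scale. TFRC reached 34.1 ± 7.18 TPM and NCOA4, the cargo receptor that carries ferritin to the lysosome, 25.9 ± 1.99 TPM. ACO1, which serves as cytosolic aconitase or as iron regulatory protein 1 depending on its iron-sulfur cluster, stood at 11.8 ± 1.19 TPM. FBXL5, the iron-sensing ubiquitin ligase subunit that targets the iron regulatory proteins for degradation, stood at 9.80 ± 0.0707 TPM. SLC11A2 (3.16 ± 0.184 TPM) and IREB2 (3.03 ± 0.545 TPM), which encodes iron regulatory protein 2, were lowest, and the ranges of these neighbours overlapped. No other neighbours in this order overlapped in clean-air input. Among protein-coding genes by TPM, FTL ranked between 23 and 44 in the 4 input libraries, and FTH1 between 100 and 114. Levels are compared between groups below in CPM (counts scaled to library size) after TMM scaling, which is not a measure per length.

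The comparison of FA_IN with CA_IN asks whether formaldehyde changed the abundance of these mRNAs. FTH1 stood at 662 and 568 CPM in CA_IN and at 777 and 639 CPM in FA_IN (replicates 1 and 3 throughout). The FTH1 ranges overlapped, and the log2 fold change was 0.20 (SE 0.12, 95% CI -0.06 to 0.47, edgeR quasi-likelihood adjusted p = 0.945). FTL was at 1813 and 1512 CPM in clean air and at 1975 and 1532 CPM after formaldehyde. The FTL difference of 0.08 (SE 0.14) on the log2 scale was smaller than the gap between its replicates. TFRC was at 443 and 341 CPM in CA_IN and at 396 and 326 CPM in FA_IN, which overlapped, with a log2 fold change of -0.12 (SE 0.19, CI -0.55 to 0.31).

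Of the iron regulatory proteins, IREB2 stood at 40.2 and 33.5 CPM in CA_IN and at 33.1 and 30.4 CPM in FA_IN. These ranges did not overlap, but the fold change of -0.22 (SE 0.18, adjusted p = 0.945) did not pass the test. ACO1 stood at 109 and 130 CPM in CA_IN and at 114 and 131 CPM in FA_IN. NCOA4 stood at 246 and 227 CPM in clean air and at 214 and 225 CPM after formaldehyde, again without overlap, with a log2 fold change of -0.11 (SE 0.08). None of these estimates passed the test.

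FBXL5 stood at 46.8 and 50.9 CPM in CA_IN and at 41.8 and 46.8 CPM in FA_IN, and its log2 fold change was -0.14 (SE 0.10). SLC11A2 stood at 19.5 and 22.8 CPM in clean air and at 18.01 and 21.3 CPM after formaldehyde, with a log2 fold change of -0.10 (SE 0.14). Thus 0 of 8 members were called in input by edgeR, where the background was 0.00548% of tested genes, and 0 had an unadjusted p under 0.05, beside 3.35% of tested genes. DESeq2 on all 8 libraries also called 0, beside 0.0164%. Ranges did not overlap for 2 of 8 members, beside 33.9% of all tested genes. The median log2 fold change was -0.10 over the members and 0.02 over all tested genes. Compared by replicate number, all 8 members had 1 sign in both numbers, as did 62.1% of tested genes, for example 0.23 and 0.17 for FTH1 and -0.28 and -0.14 for IREB2. With the replicate number as a block edgeR still called 0 members, beside 258 of 18242 tested genes (1 without the block). The widest member interval, that of TFRC, ran from -0.55 to 0.31, so with 2 replicates a group a TFRC change within it was not excluded. In bulk RNA, fewer cells with a given mRNA and less of that mRNA per cell cannot be told apart. Since CPM is scaled to library size, a change in total RNA would not show.

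**Figure D1:**
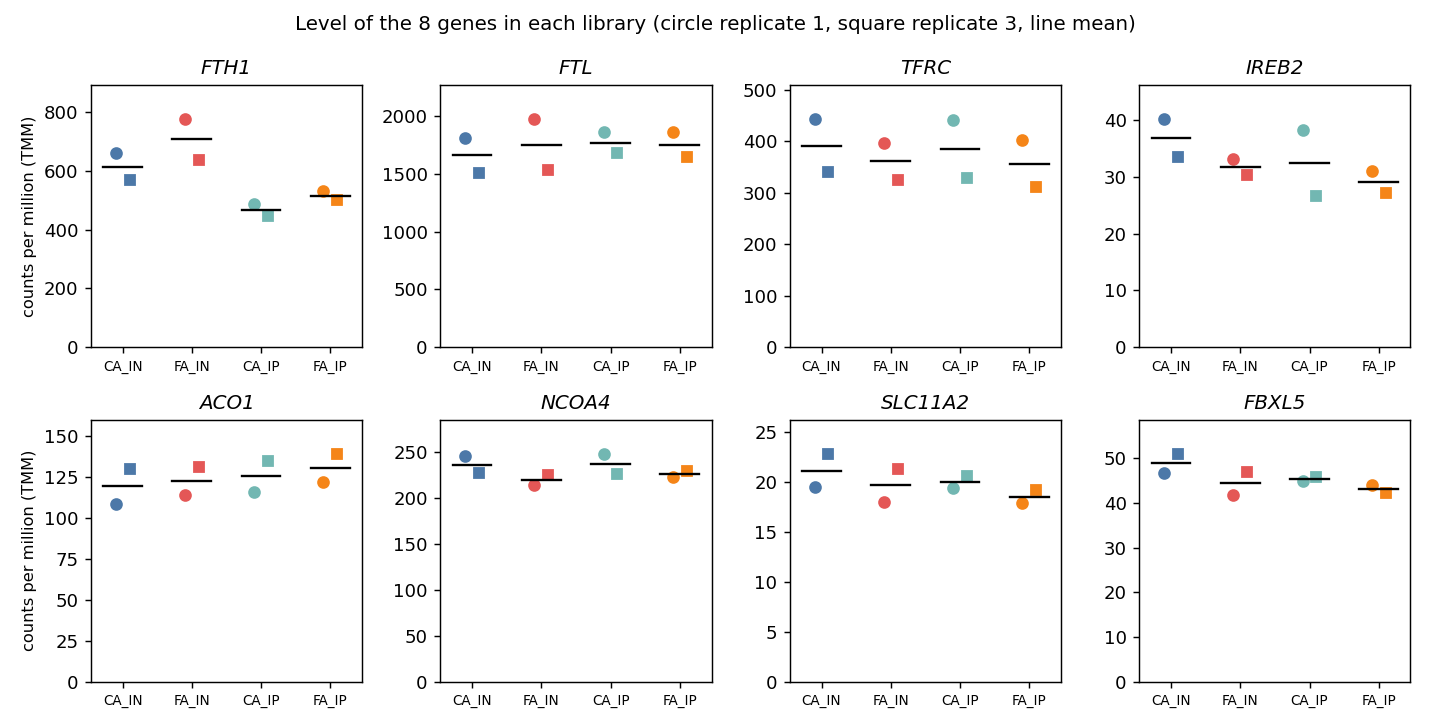
CPM after TMM scaling (y axis, linear from 0) for the 8 genes in each group (x axis), with a circle for replicate 1, a square for replicate 3 and a line at the mean. FTH1 is the gene whose 4 immunoprecipitated libraries (447 to 533 CPM) all sit below its 4 input libraries (568 to 777 CPM).

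The pull-down comparisons ask which mRNAs were richer or poorer in the antibody-bound RNA than in the input of the same treatment. FTH1 stood at 488 and 447 CPM in CA_IP, against 662 and 568 CPM in CA_IN. After formaldehyde it stood at 533 and 500 CPM in FA_IP, against 777 and 639 CPM in FA_IN. In CPM the groups did not overlap in either treatment, and FTH1 was lower after pull-down in all 4 RNA pools. The log2 differences were -0.44 and -0.35 in clean air and -0.54 and -0.35 after formaldehyde. In TPM the direction was reversed. Mean FTH1 TPM was 343.5 in CA_IN and 519.4 in CA_IP, and 378.1 in FA_IN and 531.3 in FA_IP. The mean TPM of each other member was also higher after pull-down in both treatments. By TPM, FTH1 ranked between 103 and 118 among protein-coding genes after pull-down, and between 100 and 114 in the inputs. The cause of the rise in TPM was not tested.

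The edgeR estimate for FTH1 was -0.40 in CA_IP (SE 0.12, CI -0.66 to -0.13, unadjusted p = 0.00866, adjusted p = 0.173) and -0.46 in FA_IP (SE 0.12, CI -0.72 to -0.19, unadjusted p = 0.00406, adjusted p = 0.163). Neither passed the adjusted limit of 0.05 in that model, which does not use the pairing. When edgeR took each RNA pool as a block, FTH1 was called lower in CA_IP (-0.39, adjusted p = 0.000105) and in FA_IP (-0.45, adjusted p = 2.18e-05). The same block moved the calls over all tested genes from 349 to 3179 in CA_IP (5.85% lower and 11.6% higher) and from 274 to 1835 in FA_IP (4.6% lower and 5.45% higher). With each library left out in turn and no block, the FTH1 estimate ranged from -0.52 to -0.28 in CA_IP and from -0.57 to -0.30 in FA_IP, with the value nearest 0 in formaldehyde found without FA_IN replicate 1.

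FTL, whose mRNA is of like length and carries nearly the same hairpin, gave other values. It stood at 1859 and 1679 CPM in CA_IP, against 1813 and 1512 CPM in CA_IN, and at 1864 and 1644 CPM in FA_IP, against 1975 and 1532 CPM in FA_IN. The ranges overlapped in each treatment. The FTL log2 fold change was 0.09 in CA_IP (SE 0.14, CI -0.23 to 0.41) and 0.00 in FA_IP (SE 0.14, CI -0.32 to 0.32).

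TFRC, with a far longer mRNA, was at 441 and 328 CPM in CA_IP and at 402 and 311 CPM in FA_IP. Replicate 1 was above replicate 3 in every group, and within each RNA pool the input and immunoprecipitated values nearly coincided, at differences of -0.07 to 0.02 on the log2 scale. The edgeR estimates were -0.03 (SE 0.19) in CA_IP and -0.02 (SE 0.19) in FA_IP.

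**Figure D2:**
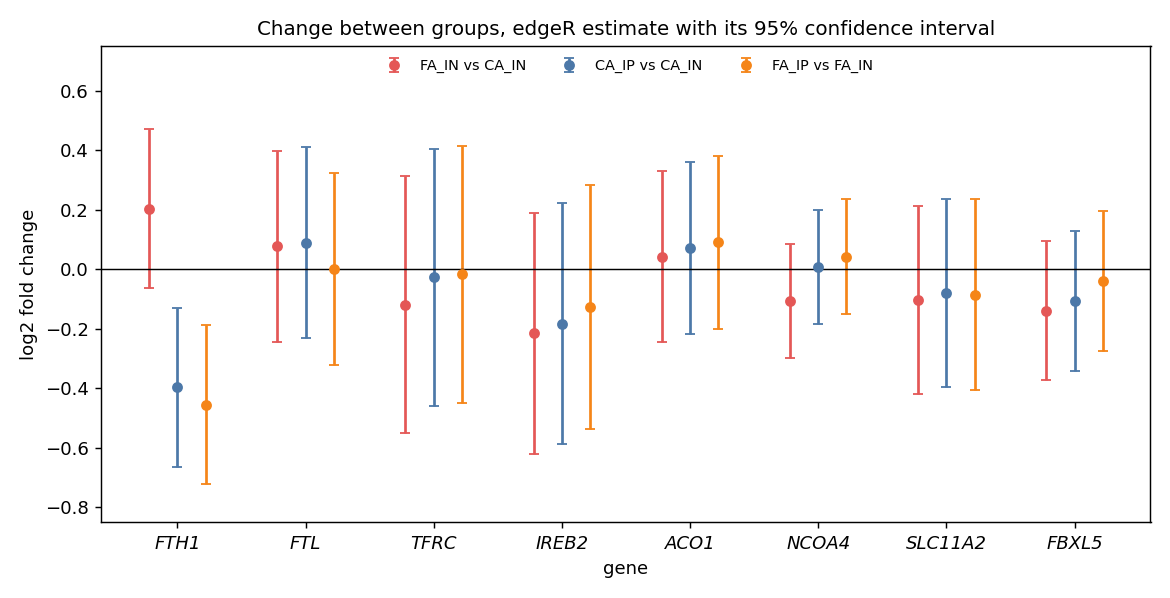
Log2 fold change (y axis) of each gene (x axis) in the input comparison and in both pull-down comparisons, as the edgeR estimate with its 95% confidence interval. The intervals of FTH1 in both pull-down comparisons lie below 0 before adjustment (-0.66 to -0.13 and -0.72 to -0.19), and those of the other 7 genes include 0.

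Among the regulators, ACO1 was at 116 and 135 CPM in CA_IP and at 122 and 139 CPM in FA_IP, with pull-down estimates of 0.07 (SE 0.13) and 0.09 (SE 0.13). IREB2 was at 38.3 and 26.5 CPM in CA_IP and at 31.0 and 27.1 CPM in FA_IP, with -0.18 (SE 0.18) and -0.13 (SE 0.18). Within the RNA pools the differences after TMM scaling ran from -0.33 to -0.07 for IREB2, from 0.06 to 0.10 for ACO1 and from -0.15 to -0.01 for SLC11A2. The IREB2 value in CA_IP changed sign to 0.06 without CA_IP replicate 3. FBXL5 was at 44.8 and 45.9 CPM in CA_IP, below both CA_IN libraries, and at 44.1 and 42.2 CPM in FA_IP, with -0.11 (SE 0.10) and -0.04 (SE 0.10).

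NCOA4 was at 248 and 227 CPM in CA_IP and at 223 and 229 CPM in FA_IP, with 0.01 (SE 0.08) and 0.04 (SE 0.08). These were the narrowest intervals of the 8, from -0.18 to 0.20 and from -0.15 to 0.24. SLC11A2 was at 19.4 and 20.6 CPM in CA_IP and at 17.9 and 19.2 CPM in FA_IP, with -0.08 (SE 0.14) and -0.09 (SE 0.14).

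By edgeR, 0 of 8 members were called in CA_IP and 0 of 8 in FA_IP, and 1 of 8, FTH1, had an unadjusted p under 0.05 in each, beside 12.6% of tested genes in CA_IP and 9.1% in FA_IP. The background of adjusted calls was 1.77% of tested genes lower and 0.148% higher in CA_IP, and 1.47% lower and 0.0329% higher in FA_IP. DESeq2 on all 8 libraries called 0 members in CA_IP and 1, FTH1, in FA_IP (adjusted p = 0.0284), beside 3.07% and 2.13% of the genes to which it gave an adjusted p. Ranges did not overlap for 2 of 8 members in CA_IP (FTH1 and FBXL5) beside 41% of tested genes, for 1 of 8 in FA_IP beside 37.4%, and for 1 of 8 between all 4 immunoprecipitated and all 4 input libraries beside 13.7%. The member median was -0.05 in CA_IP and -0.03 in FA_IP, beside 0.02 and 0.00 over all tested genes.

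Scaling bears on these values, since library size in place of TMM moved the median of all tested genes to 0.16 and 0.17. The calls over all genes then came to 821 higher and 336 lower in CA_IP (4.5% and 1.84%), in place of 27 and 322, and to 318 higher and 243 lower in FA_IP (1.74% and 1.33%), in place of 6 and 268. On that scaling TFRC, SLC11A2 and FBXL5 stood above 0 in both pull-down comparisons and IREB2 in FA_IP, a change of sign that the shift of all genes gives. Relative to the median of all genes, FTH1 stood at -0.41 and -0.45, IREB2 at -0.20 and -0.13, FBXL5 at -0.12 and -0.04, SLC11A2 at -0.10 and -0.09, and TFRC at -0.04 and -0.01, each within 0.01 of its value after TMM scaling.

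The interaction asks whether pull-down differed between the treatments. It was -0.06 for FTH1 (SE 0.17, CI -0.44 to 0.32), -0.09 for FTL (SE 0.20) and 0.01 for TFRC (SE 0.27). By edgeR 0 of 8 members were called, with 0 at an unadjusted p under 0.05, and the background was 0% of tested genes (195 of 18242, or 1.07%, at an unadjusted p under 0.05). DESeq2 on all 8 libraries called 0 members, beside 0.0164% of tested genes. A pull-down difference of up to about 0.4 for FTH1 therefore lay within the interval.

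Ratios within a library do not depend on scaling. The FTH1 to TFRC ratio of counts was 1.49, 1.67, 1.96 and 1.96 in the inputs (CA_IN then FA_IN) and 1.10, 1.36, 1.33 and 1.61 in the immunoprecipitated libraries. It was lower after pull-down in 4 of 4 pools, but the ranges overlapped, since FA_IP replicate 3 (1.61) lay above CA_IN replicate 1 (1.49). The difference in mean log2 ratio was -0.40, with means of 0.42 ± 0.22 in IP and 0.82 ± 0.19 in IN (SD, n = 4; exact two-sided permutation p = 0.0571, 0.114 adjusted over the 2 ratios; smallest p possible 0.0286). The permutation tests of both ratios shuffled all 8 libraries and used neither the pairing by RNA pool nor the treatment. Spread between pools and between treatments therefore enters these p-values. From TPM in place of counts the FTH1 to TFRC difference was -0.30 (exact permutation p = 0.143, not adjusted). The FTL to TFRC ratio was 4.09, 4.44, 4.99 and 4.70 in the inputs and 4.22, 5.12, 4.63 and 5.29 in the immunoprecipitated libraries. Its difference of 0.08 was within the spread of 2.26 ± 0.15 in IP and 2.18 ± 0.12 in IN (SD, n = 4; exact permutation p = 0.429, adjusted p = 0.429).

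The ratio of the 2 ferritin mRNAs was chosen after the values were seen and is given without a test. FTH1 counts were 0.365, 0.376, 0.393 and 0.417 of FTL counts in the inputs and 0.262, 0.266, 0.286 and 0.304 in the immunoprecipitated libraries. The fractions did not overlap, and in each fraction both formaldehyde libraries lay above both clean-air libraries. Within the RNA pools the log2 ratio dropped by 0.48, 0.50, 0.46 and 0.46, a tighter set than for either ferritin against TFRC. From TPM in place of counts the mean difference was -0.38 in place of -0.47.

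**Figure D3:**
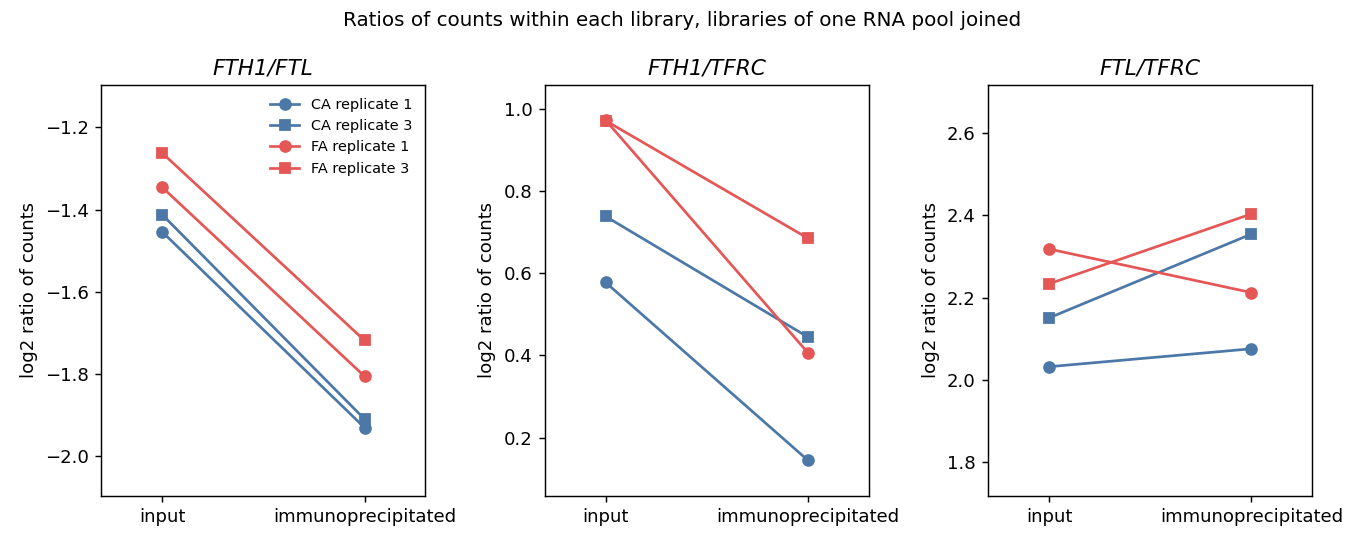
Log2 ratio of expected counts of FTH1 to FTL, FTH1 to TFRC and FTL to TFRC (y axes of equal span) in input and immunoprecipitated libraries (x axis), with a line joining the 2 libraries of each RNA pool. The FTH1 to FTL lines run in parallel from between -1.45 and -1.26 to between -1.93 and -1.72, and the FTL to TFRC lines do not share a direction.

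The ferritin pseudogenes, processed copies that could take reads from their parents, held few counts. The 25 FTH1 pseudogenes in the tables summed to between 0.340% and 0.587% of the parent and pseudogene counts in a library, with FTH1P10 and FTH1P3 the largest. The 16 FTL pseudogenes summed to between 0.0800% and 0.128%, mostly FTLP3. How the counting divided reads between near-identical copies is uncertain, but adding the pseudogenes back left the FTH1 to FTL difference at -0.47.

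Length is a property on which the ferritin mRNAs and TFRC differ. The effective length, which is the length that reads can start from, was 669 bases for FTH1, 660 for FTL and 4823 for TFRC, weighted by counts. Of 3281 tested genes under 1000 bases, 8.72% were called lower in CA_IP and 7.28% in FA_IP, and their median log2 fold changes were -0.09 and -0.13. Of 3829 genes over 4000 bases, 0.0261% were called lower in each, with medians of -0.05 and -0.06. FTH1 was not at the edge of its class, since 31.1% of genes under 1000 bases had a lower value in CA_IP and 29.5% in FA_IP. FTL stood above 65.2% and 59.9% of the same class, and TFRC above 55.3% and 62.3% of genes over 4000 bases. The share of guanine in the canonical mRNA, the base from which 8-oxoG forms, was 23.1% for FTH1, 25.3% for FTL and 22.05% for TFRC, beside a median of 24.7% over tested genes with a canonical coding transcript. The part of length or guanine content in the FTH1 values was not tested.

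**Figure D4:**
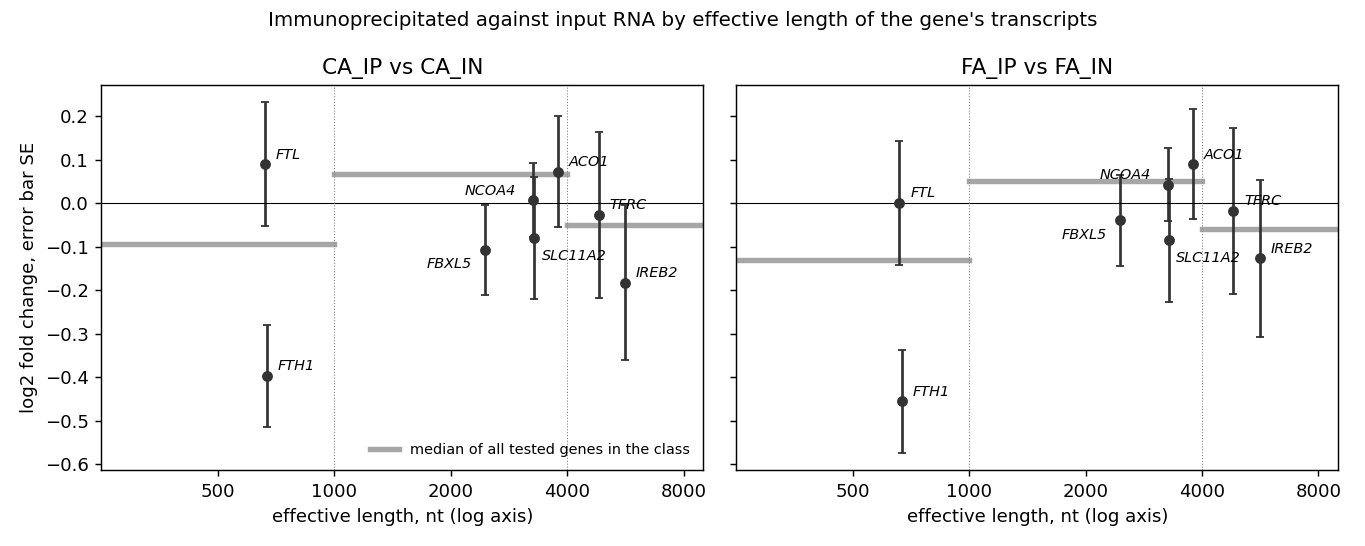
Log2 fold change of immunoprecipitated against input RNA (y axis, error bars SE) against the effective length of each gene in bases (x axis, log), for clean air on the left and formaldehyde on the right, with grey bars at the median of all tested genes of each length class. FTH1 and FTL sit at nearly the same length (669 and 660 bases), FTH1 at -0.40 and -0.46 and FTL at 0.09 and 0.00.

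At the level of isoforms, the 8 genes had 95 transcripts in the tables and 57 were tested. By edgeR 1 was called in any of the 4 comparisons, FTH1-208, beside 0.253% of all tested transcripts. FTL had a single isoform. The rest of the FTH1 counts went mostly to FTH1-212 (63.5% over all libraries) and FTH1-201 (18.9%), both coding for the full subunit, with 6.38% in FTH1-206, 5.33% in FTH1-208 and 3.95% in FTH1-202. FTH1 spans chr11:61959718-61967634 on the minus strand. FTH1-212 lacks a stretch of the 5′ UTR that FTH1-201 keeps, but holds the hairpin. FTH1-208 is annotated as a target of nonsense-mediated decay and begins its exon 3 at position 61965105 of chromosome 11, where FTH1-201 begins at 61965112. FTH1-206 ends in a distant exon at chr11:61959822-61959904.

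FTH1-208 was assigned 383 and 402 expected counts in CA_IP, where CA_IN had 1914 and 1353. After formaldehyde it was assigned 224 and 238 in FA_IP, where FA_IN had 1127 and 1444. These counts are not scaled to library size, and the immunoprecipitated libraries held fewer counts in total. As a share of FTH1 counts, FTH1-208 was also lower after pull-down in both treatments, without overlap. The share was 6.43% ± 0.272 in the inputs and 2.99% ± 1.07 after pull-down (SD, n = 4). How many other transcripts have shares without overlap was not counted. FTH1-208 fell by 2.01 on the log2 scale in FA_IP (SE 0.17, adjusted p = 0.0308). In CA_IP the log2 fold change was -1.22 (SE 0.17, adjusted p = 0.0766), and the interaction of -0.80 (SE 0.23, unadjusted p = 0.0136, adjusted p = 1) was not called. Without any 1 of the 8 libraries the FTH1-208 call was lost. Calls over all tested transcripts also fell in each of those fits, which leave 1 library in a group.

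FTH1-206 took a larger share after pull-down, from 3.44% to 5.10% of FTH1 counts in the inputs and from 9.51% to 11.95% in the immunoprecipitated libraries. Its log2 fold change was 1.07 in CA_IP (SE 0.25, adjusted p = 0.344) and 0.67 in FA_IP (SE 0.25, adjusted p = 0.778), and neither passed the test. The share of FTH1-212 was 63.9% ± 1.29 in the inputs and 62.8% ± 1.88 after pull-down (SD, n = 4), which overlapped. The shares were described after the counts were seen. These isoforms share most of their bases, so their counts rest on the few reads that tell them apart and on the division made by estimation.

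BEST1 overlaps FTH1 on the opposite strand (chr11:61950063-61965515, plus strand), and the counting is described without a strand setting, so that reads from the shared stretch cannot be told apart by strand. BEST1 was assigned 107 to 274 expected counts a library, against 9260 to 28812 for FTH1. The shared stretch holds the 3′ exons in which FTH1-206 and FTH1-208 differ from FTH1-201, and these isoforms also differ at the start of exon 1, outside it.

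**Figure D5:**
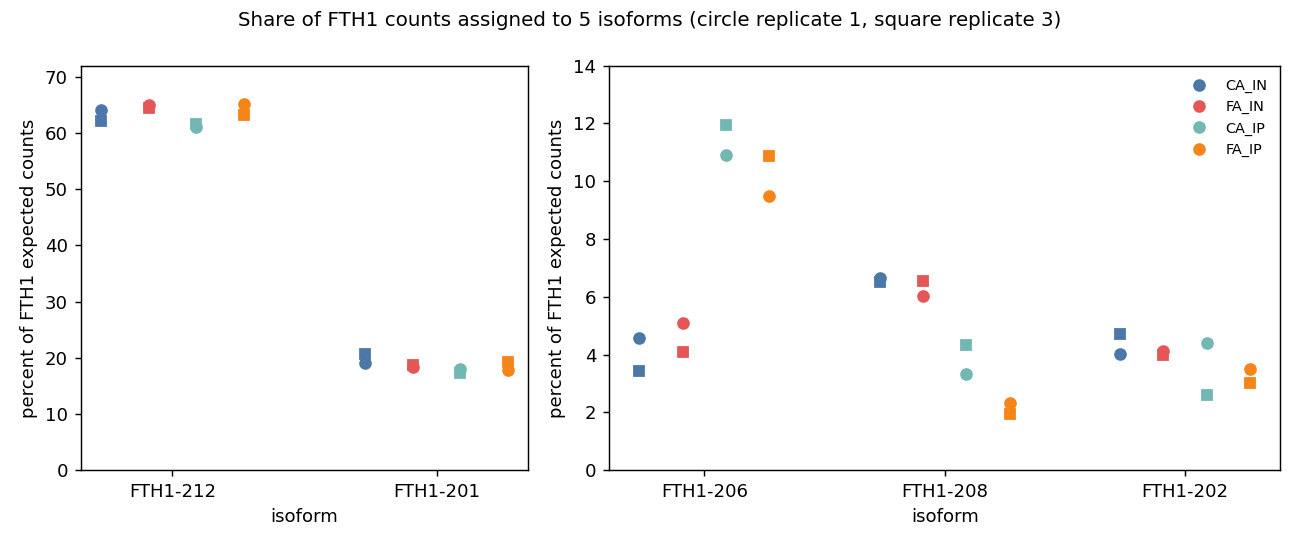
Percent of FTH1 expected counts (y axes, from 0) assigned to FTH1-212 and FTH1-201 on the left and to FTH1-206, FTH1-208 and FTH1-202 on the right (x axes), by library and group. After pull-down FTH1-206 lies at 9.51% to 11.95% and FTH1-208 at 1.96% to 4.34%, and in the inputs they lie at 3.44% to 5.10% and at 6.03% to 6.64%.

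The other members' leading isoforms gave no calls. TFRC-201 held 94.3% of TFRC counts, with a log2 fold change of -0.08 (SE 0.21) in CA_IP and 0.00 (SE 0.21) in FA_IP, and TFRC-202 and TFRC-203 were not called either. IREB2-201 (82.1% of its gene), ACO1-202 (89.0%) and NCOA4-204 (79.8%) also dominated, and lay between -0.25 and 0.11 in the pull-down comparisons. FBXL5 was spread over FBXL5-202 (40.2%), FBXL5-201 (22.1%) and FBXL5-205 (17.2%). FBXL5-202 had -0.51 (SE 0.25) in CA_IP, adjusted p = 0.788.

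For SLC11A2, the isoforms that contain the hairpin, among them SLC11A2-222 and SLC11A2-227, in which no coding sequence is annotated, held 58.1% and 57.4% of the gene's counts in CA_IN and 56.0% and 55.3% in FA_IN. After pull-down the share was 28.2% and 54.1% in CA_IP and 60.2% and 33.1% in FA_IP. The immunoprecipitated libraries thus spread widely within a group and the inputs did not. In the 2 low libraries, 123 and 92.2 counts went to isoforms not in GENCODE 44, whose 3′ ends were not read here. SLC11A2-201, the largest isoform with the hairpin, was not called (-0.62, SE 0.51 in CA_IP, and -0.43, SE 0.52 in FA_IP), nor was SLC11A2-229, which lacks it (-0.24, SE 0.34 and -0.11, SE 0.34).

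Beyond the members, 90 other genes of iron handling in 8 lists were followed, of which 80 were tested. By edgeR none was called in input, where 0 had an unadjusted p under 0.05, and DESeq2 on all 8 libraries also called 0. In each pull-down comparison 2 of 80 were called, both lower, beside the 1.77% and 1.47% of tested genes given above. With library size in place of TMM these became 6 higher and 1 lower in CA_IP and 3 higher and 1 lower in FA_IP, and with the RNA pool block 18 higher and 6 lower and 8 of each. Their median log2 fold change was 0.05 in CA_IP and 0.05 in FA_IP, and 0.06 in input.

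The 2 called genes belong to the list on control of the iron regulatory proteins, where they are partners of FBXL5 in its ubiquitin ligase. RBX1, the RING subunit, stood at 69.2 and 69.2 CPM in CA_IN and at 33.7 and 39.0 CPM in CA_IP. In formaldehyde it stood at 80.4 and 77.1 CPM in FA_IN and at 42.3 and 45.0 CPM in FA_IP. RBX1 fell by 0.93 (SE 0.10, adjusted p = 0.00151) in CA_IP and by 0.85 (SE 0.10, adjusted p = 0.00316) in FA_IP. SKP1, the adaptor that holds F-box proteins such as FBXL5, stood at 300.4 and 300.0 CPM in CA_IN and at 217 and 223 CPM in CA_IP. It stood at 323 and 337 CPM in FA_IN and at 249 and 249 CPM in FA_IP. SKP1 fell by 0.45 (SE 0.07, adjusted p = 0.0148) and by 0.41 (SE 0.07, adjusted p = 0.0298). For RBX1 and SKP1, which are named because they were called, all immunoprecipitated libraries lay below all inputs. Over all tested genes, 13.7% had ranges without overlap between these fractions, in either direction. The RBX1 call in FA_IP was lost without FA_IN replicate 1 (adjusted p = 0.0557) and without FA_IP replicate 1 (adjusted p = 0.0508). Those of SKP1 were lost with library size scaling (adjusted p = 0.0549 and 0.141), and in CA_IP without any 1 of the 4 clean-air libraries (adjusted p = 0.0738 or more). In FA_IP the SKP1 call was lost without any 1 of the 4 formaldehyde libraries (adjusted p = 0.157 to 0.344) or either CA_IN library (adjusted p = 0.0769 and 0.104). EdgeR on only the 4 libraries compared also gave SKP1 no call (adjusted p = 0.0805 and 0.0886). These subunits serve many other ubiquitin ligases as well. CIAO2B, a factor of cytosolic iron-sulfur assembly and the other abundant gene of this list, had -0.30 (SE 0.12, adjusted p = 0.337) and -0.48 (SE 0.12, adjusted p = 0.15).

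In the other 7 lists edgeR called 0 genes, and DESeq2 on all 8 libraries called 1, SLC25A39, a mitochondrial carrier for glutathione, at 0.45 (SE 0.13, adjusted p = 0.0189) in CA_IP. This gene is named because DESeq2 called it. Of the iron chaperone and ferritinophagy genes, 9 were tested, and 4 and 2 had an unadjusted p under 0.05 in CA_IP and FA_IP, where 12.6% and 9.1% of all tested genes did. PCBP2, a chaperone that delivers iron to ferritin, was the most abundant at 51.4 ± 2.04 TPM in clean-air input and had -0.23 (SE 0.07) in each pull-down. GLRX3 had 0.03 (SE 0.08) and 0.06 (SE 0.08). Of 18 tested genes of heme synthesis, transport and breakdown, 4 had an unadjusted p under 0.05 in each pull-down, and the list's median was 0.16 and 0.21. UROD, an enzyme of heme synthesis, had 0.38 (SE 0.10, adjusted p = 0.114) and 0.33 (SE 0.10, adjusted p = 0.25), and PGRMC1 had 0.01 and 0.04.

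Of 18 tested genes of mitochondrial iron and iron-sulfur assembly, HSPA9 (103 ± 0.240 TPM) had 0.06 and 0.05, and the scaffold ISCU -0.20 and -0.32. Uptake and reduction (11 tested) had medians of -0.12 and -0.08, with the zinc and iron importer SLC39A14 at 0.08 and 0.03 and the ferric reductase CYBRD1 at -0.07 and -0.04. Export and oxidation (5 tested) had medians of 0.08 and 0.15, with FLVCR1 at -0.10 and 0.01 and PROM2 at 0.34 (SE 0.22) and 0.15 (SE 0.22). Systemic control (6 tested) had medians of 0.02 and 0.00, with SMAD4 at -0.03 and -0.04 and FURIN at 0.40 (SE 0.16, adjusted p = 0.323) and 0.17 (SE 0.16). The 5 other mRNAs known to carry an iron-responsive element had medians of 0.03 and -0.01, with APP at 0.21 (SE 0.09) and 0.13 (SE 0.09).

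Among 10590 protein-coding genes with a mean count of at least 100, those whose centred log2 CPM over the 8 libraries lay closest to FTH1 were SH3BGRL3, LAGE3 and GAPDH, with root mean square differences of 0.0467, 0.0585 and 0.0625. For FTL they were HIRIP3 (0.0276), VKORC1 (0.0323) and COL4A2 (0.0382), and for TFRC they were GGNBP2 (0.0245), ZNF302 (0.0338) and ABRAXAS2 (0.0394). FTH1 and FTL were not among each other's closest genes, and the points share the same libraries and scaling.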

How the data were processed

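The authors trimmed reads with cutadapt, aligned them with STAR 2.6.0a to GRCh38 with Ensembl 94, and estimated transcript abundance with RSEM 1.2.25, per the study's methods and the processing notes. The deposited transcript tables hold RSEM expected counts and TPM, a share of the library corrected for length. The deposited comparison tables hold the authors' DESeq2 log2 fold changes and p-values and were not used.

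Expected counts were summed by gene (GENCODE 44 symbols for 58207 of 58735 gene identifiers) and rounded. Genes that reached 10 counts in 2 or more of the 8 libraries were tested with edgeR 4.0.16 (TMM, quasi-likelihood, R 4.3.3, limma 3.58.1) in a model of 4 groups, with Benjamini-Hochberg adjustment over all 18242 tested genes and a limit of 0.05. Transcripts were tested likewise (67873). Intervals are at 95%. Ratios were compared with exact two-sided permutation tests over all 8 libraries, without the pairing by RNA pool. Alternatives were DESeq2 1.42.0, library size scaling, other filters, a prior count of 2, edgeR on 4 libraries, pseudogene counts added, protein-coding genes only, a replicate or RNA pool block, and each library left out. Tables were made with Python 3.11.15.

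The labels give no replicate number. The numbers 1 and 3 come from the names of the deposited tables, and by the study's methods input and immunoprecipitated RNA came from 1 pool. Over 12640 genes, the differences between replicates 1 and 3 correlated at 0.718 between CA_IN and CA_IP and at 0.564 between FA_IN and FA_IP, and at 0.534 between CA_IN and FA_IN.

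The members and lists were chosen with earlier results of these data known. Named were all members, the 3 largest isoforms of each and any called one, list genes called in a comparison, the 2 of largest TPM in each list, and the 3 closest genes in pattern to FTH1, FTL and TFRC. FTH1-202 and BEST1 were added after their values were seen. One gene that this rule names is not reported here.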

Additional observations from a re-analysis of the deposited data

How the results depend on the processing

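FTH1 was the member whose call changed. In CA_IP against CA_IN the number of members called was 0, and it was 1 (FTH1) with no filter (adjusted p = 0.000997), with the replicate block (adjusted p = 0.00223) and with the RNA pool block. In FA_IP against FA_IN it was 0, and it was 1 (FTH1) with DESeq2 on all 8 libraries, with DESeq2 on only the 4 libraries compared (adjusted p = 0.0205), with no filter (adjusted p = 0.000214), with the replicate block (adjusted p = 0.000788) and with the RNA pool block. The blocks changed no other member's call. The cause of the other changes was not tested. The input and interaction counts of members stayed at 0 in every setting run. Member isoforms called went from 1 (beside 0.253% of all tested transcripts) to 4 with DESeq2 (beside 2.7%). They went to 0 with library size (beside 0.162%) and to 2 with no filter (beside 0.633%). With each library left out the 1 call was lost, and calls over all tested transcripts fell as well.

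Of 584 member values under the alternatives, 549 moved by less than 1 SE, and 72 values that were not called changed sign. The log2 ratio difference lay between -0.48 and -0.30 for FTH1 to TFRC and between 0.03 and 0.14 for FTL to TFRC with each library left out. Paired by RNA pool, an exact permutation test by sign flips cannot reach 0.05 with 4 pools, so it says nothing of either ratio. Over all genes, library size scaling gave 821 higher and 336 lower in CA_IP in place of 27 and 322, and 318 and 243 in FA_IP in place of 6 and 268. The replicate block gave 258 calls in input in place of 1, 1941 in CA_IP and 953 in FA_IP, and no filter gave 100, 686 and 578. DESeq2 on only the 4 libraries compared gave 346 calls in FA_IP. With 2 replicates a group, small differences were not detectable.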
